A study of Mus musculus with 10 samples.

Results

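The genes described here are the amino acid response genes of ATF4, a set of 38 named genes. They are Atf4 itself, its C/EBP partners and genes known to be transcribed through ATF4 when amino acids run short or unfolded protein builds up. They were chosen by name and not by their values. They fall into 6 regulators, 3 stress effectors, 8 enzymes of amino acid synthesis and one-carbon metabolism, 9 amino acid transporters and 12 cytosolic tRNA synthetases. On the array, 37 of the 38 had a probe set assigned to that gene alone, out of 18193 genes measured in this way. The exception, Pycr1, a proline synthesis enzyme, has no value here. Each gene was read from its brightest probe set over all arrays, and the platform's Mars is listed as Mars1.

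Cultured fibroblasts of normal mouse lung were compared with carcinoma-associated fibroblasts (CAF), fibroblasts that accompany a carcinoma, on 5 Affymetrix arrays per group. Both kinds of cell came from mouse lungs and were grown in DMEM with 10% serum and antibiotics for 10 to 14 days. They were then replated on 10 cm dishes and kept overnight in the same medium before total RNA was taken. The array titles speak of biological replicates; nothing says that each came from a separate animal, so the p-values measure the spread between these samples, which may be partly technical. The labels name no strain, age, sex, genotype, tumour model or added agent, and they separate the groups by cell type alone. Values are RMA log2 expression: a step of 1 is a 2-fold difference, and levels of different genes cannot be set against each other.

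Amino acid shortage is sensed by the kinase GCN2, encoded by Eif2ak4, and endoplasmic reticulum stress by PERK, encoded by Eif2ak3. Both phosphorylate the translation factor eIF2, which slows protein synthesis as a whole while the Atf4 mRNA is translated better. The ATF4 protein then binds, often with a C/EBP partner, to composite sites in target promoters and raises the transcription of genes that import, make and charge amino acids, and of stress genes such as Ddit3, Trib3 and Chac1. Since ATF4 is controlled mostly at translation, the level of its own mRNA is a limited readout, and that of its targets is the usual one. In fibroblasts the pathway is known for supplying amino acids to collagen synthesis.

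The composite site is commonly written TGATGNAA, and it was searched on both strands of the RefSeq promoters (GRCm38.p6, 250 bases before to 50 after the transcription start). Of the 38 genes, 31 had such a promoter in the table, and 12 of the 31 (38.7%) held the motif at least 1 time. Among all 32851 promoters of the table the share was 3.97%, and among the 14452 measured genes with a promoter it was 3.24%. The list was drawn up from Atf4, its partners and its known targets, so this share describes the list and is no evidence about these cultures. The motif stood in the promoters of 2 of 6 regulators, 1 of 3 stress effectors, 2 of 8 synthesis enzymes, 2 of 6 transporters and 5 of 8 synthetases. The stretches around it are shown for genes that span the results below, from those with a wide spread between cultures (Trib3, Chac1, Nupr1, Asns, Slc1a4, Aars) to those with a narrow one (Iars, Yars), and for Slc7a11, which holds the motif on both strands. Trib3, Chac1, Iars and Yars followed from the rule for printing promoters (the 3 smallest p-values of each role), and the others were picked after their values were seen. Each is written 5′ to 3′ on the strand of the gene, with the 8 matching bases in capitals. A match that reads TTNCATCA is the motif on the opposite strand.
Trib3, chr2:152344037-152344066, minus strand: agcagcagattagctcaggtTTACATCAgc
Chac1, chr2:119351029-119351076, plus strand: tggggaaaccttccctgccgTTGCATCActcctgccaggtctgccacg
Nupr1, chr7:126625553-126625600, minus strand: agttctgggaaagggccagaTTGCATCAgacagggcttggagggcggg
Asns, chr6:7693205-7693252, minus strand: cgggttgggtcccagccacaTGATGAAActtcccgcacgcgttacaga
Slc1a4, chr11:20332690-20332737, minus strand: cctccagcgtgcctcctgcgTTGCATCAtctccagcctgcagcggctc
Slc7a11, chr3:50443633-50443699, minus strand: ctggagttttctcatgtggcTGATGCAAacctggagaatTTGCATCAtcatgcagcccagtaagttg
Aars, chr8:111033710-111033757, plus strand: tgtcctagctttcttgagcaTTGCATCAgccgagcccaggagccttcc
Iars, chr13:49682117-49682153, plus strand: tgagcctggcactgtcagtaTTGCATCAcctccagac
Yars, chr4:129189886-129189926, plus strand: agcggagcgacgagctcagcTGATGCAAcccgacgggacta

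Counted from the start base as 0, the match began at -193 in Chac1, -112 in Aars, -110 in Nupr1, -23 in Asns and -4 in Slc1a4. It began at 3 in Yars, 7 in Iars and 14 in Trib3, inside the first transcribed bases. In Slc7a11 the matches began at -66 and -47. Aars held a further match at 9. A match is a description of the letters and does not show that ATF4 was bound. Promoters of Ddit3 and Sesn2, which varied widely between cultures, had no match in the window, while those of Gars, Tars and Iars, which varied little, had a match.

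The groups differed slightly in overall scale, without overlap. Medians over all probe sets were 6.76 to 6.80 for normal and 6.73 to 6.74 for CAF arrays, and upper quartiles were 9.05 to 9.13 and 9.22 to 9.30. With arrays centred on their medians or quantile-normalised, 0 of the 37 genes were called, as with the deposited values. Over all 18193 genes, 285 were called with centred and 90 with quantile-normalised arrays, against 137 with the deposited values. At shares that small, 0 of 37 says little about the part of the overall scale, which was not tested. The 3′ minus 5′ difference of the Gapdh control probe sets, a sign of RNA quality, lay between -0.09 and -0.03 on normal and between -0.08 and -0.06 on CAF arrays. That of beta-actin was 0.15, 0.25, 0.15, 0.12 and 0.09 on normal and 0.14, 0.04, 0.08, 0.08 and 0.09 on CAF arrays, highest on normal replicate 2; its part in the results was not tested. The brightest fibroblast markers, Col1a2 and Vim, read 14.61 to 15.44 and 14.39 to 14.96 over all arrays. The mean over 9 markers was 12.52 to 14.50 in normal and 12.44 to 13.96 in CAF cultures. Others of the list varied widely between cultures: Lum read 7.06 to 14.49, Pdgfra 9.54 to 12.82 and Thy1 10.81 to 13.70. Macrophage markers were present in both groups: the mean over 10 of them ran from 9.29 to 12.68 and from 10.19 to 12.70. The macrophage gene Tyrobp read 10.37 to 14.25 in the normal and 11.72 to 14.22 in the CAF cultures. Mesothelial markers (5 genes) ran from 5.86 to 11.57 on normal and from 7.21 to 10.00 on CAF arrays. The mean of 5 neutrophil genes was 10.62 on normal replicate 3 and 6.53 to 7.59 on the other 9 arrays. On normal replicate 3, S100a9 read 14.29, Mpo 9.83, Elane 8.67 and Cxcr2 6.11. S100a8, the brightest of the 5, was not confined to that array. It read 9.34, 9.26, 14.18, 10.50 and 7.87 on normal and 11.62, 9.69, 12.08, 12.59 and 12.74 on CAF arrays. Means of the lymphocyte, endothelial and epithelial lists lay between 5.99 and 7.55 on all arrays. Within the epithelial list, the keratin genes Krt8 and Krt18 reached 11.37 and 11.35, both on normal replicate 3. The 6 pericyte and smooth muscle markers averaged between 8.40 and 9.59 in normal cultures. In CAF cultures their mean lay between 8.93 and 9.52. Single genes of this list varied more widely. Des read 14.40 in normal replicate 1 but 8.07 in normal replicate 2, while its CAF values spanned 10.69 to 14.24. Myh11 was lowest in normal replicate 3 (9.34) and highest in CAF replicate 5 (12.17). RMA gives neither a 0 nor a detection call. In bulk RNA, fewer cells of a type and less RNA per cell cannot be told apart.

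Of the 37 genes, 0 were called different between CAF and normal fibroblasts (limma, adjusted p under 0.05 over all genes), against 0.753% of all genes tested (0.561% higher and 0.192% lower in CAF). At an unadjusted p under 0.05 there were 6 of 37 (16.2%), 3 higher (Slc38a1, Nars and Iars) and 3 lower (Shmt2, Slc1a5 and Stc2) in CAF, against 22.3% of all genes. The lowest adjusted p was 0.121, for Shmt2. The median difference was 0.01 log2 units, with 21 genes on the higher side and 16 on the lower, against a median of -0.04 over all genes. Of all genes, 7777 were on the higher and 10416 on the lower side. The values of the groups did not overlap for 1 of 37 genes, Slc1a5 (2.70%, lower in CAF), against 7.16% of all genes, or 4.19% in that direction. For 29 of the 37 (78.4%) the 95% interval of the difference lay within a 2-fold change in either direction, against 84.9% of all genes. The remaining 8, for which a 2-fold difference lay inside the interval, were Ddit3, Nupr1, Trib3, Chac1, Shmt2, Slc7a5, Slc1a5 and Slc38a1.

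**Figure D1:**
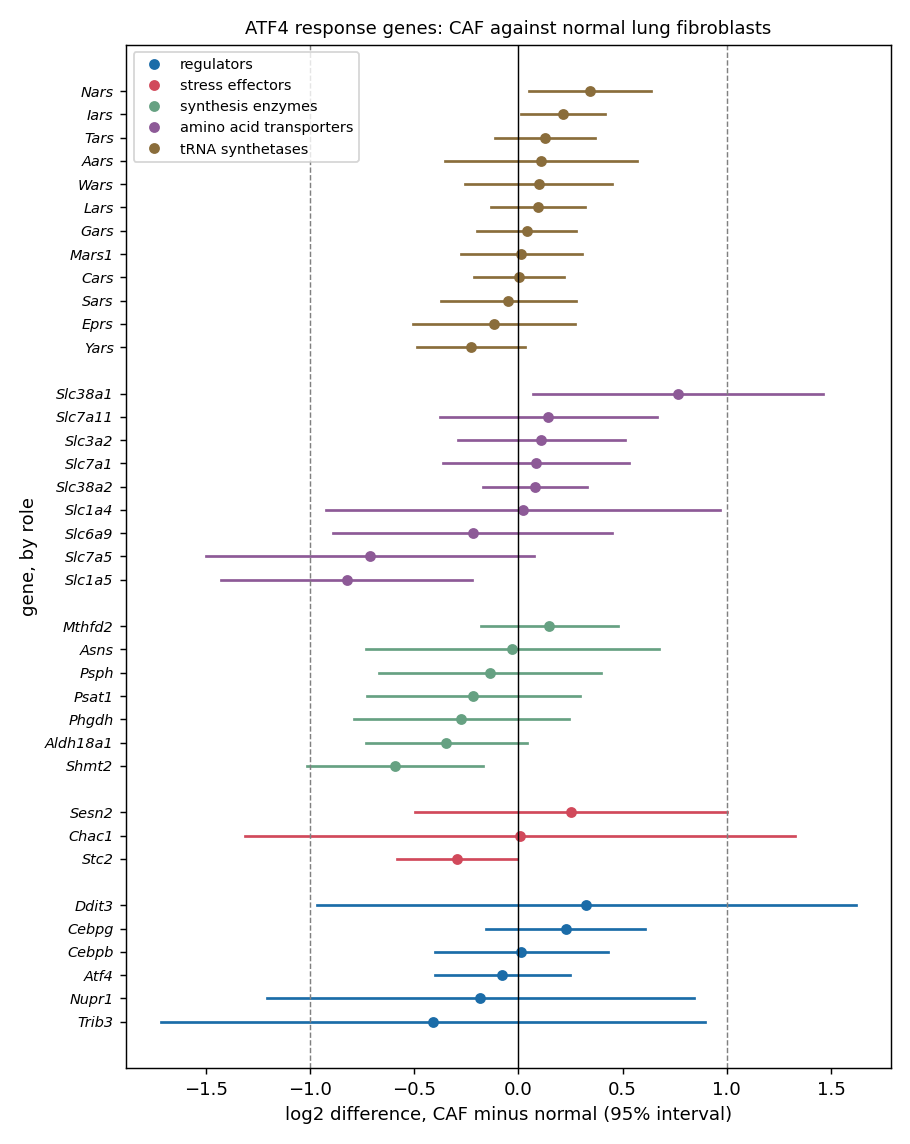
Difference between CAF and normal fibroblasts for the 37 genes, by role. Points give the log2 difference, CAF minus normal (x axis), bars are 95% intervals from limma with 5 arrays per group, and dashed lines mark 2-fold. Most points sit near 0, and the intervals of the regulators and stress effectors Ddit3, Trib3 and Chac1 are the widest, while all 12 synthetase intervals stay inside the dashed lines.

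As over the whole array, most of the genes varied more among the normal than among the CAF cultures. Their median SD was 0.38 on normal and 0.22 on CAF arrays, against 0.21 and 0.14 over all genes, and 28 of 37 (75.7%) varied more among normal than among CAF arrays, against 71.1% of all genes. Normal replicate 1 was the highest of the 10 arrays for 17 of 37 genes (45.9%), against 13.6% of all genes. It was the highest array for 4 of 6 regulators, 1 of 3 stress effectors, 2 of 7 synthesis enzymes, 4 of 9 transporters and 6 of 12 synthetases. The lowest array was normal replicate 4 for 10 of 37 genes (27.0%, against 7.96% of all genes) and normal replicate 3 for 9 (24.3%, against 15.1%). No test was made of these shares, since the genes of a pathway are not independent of each other. Without normal replicate 1, 0 of 37 genes were called, the median difference was 0.12 and 28 were on the higher side in CAF. Without normal replicate 2, 0 were called and 21 were on the higher side. Without normal replicate 3, the array with the high neutrophil genes, 0 were called and 16 were on the higher side. Of all 18193 genes, 24, 166 and 0 were called without normal replicates 1, 2 and 3. The 0 calls in the set therefore do not show that it was unaffected by these arrays.

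**Figure D2:**
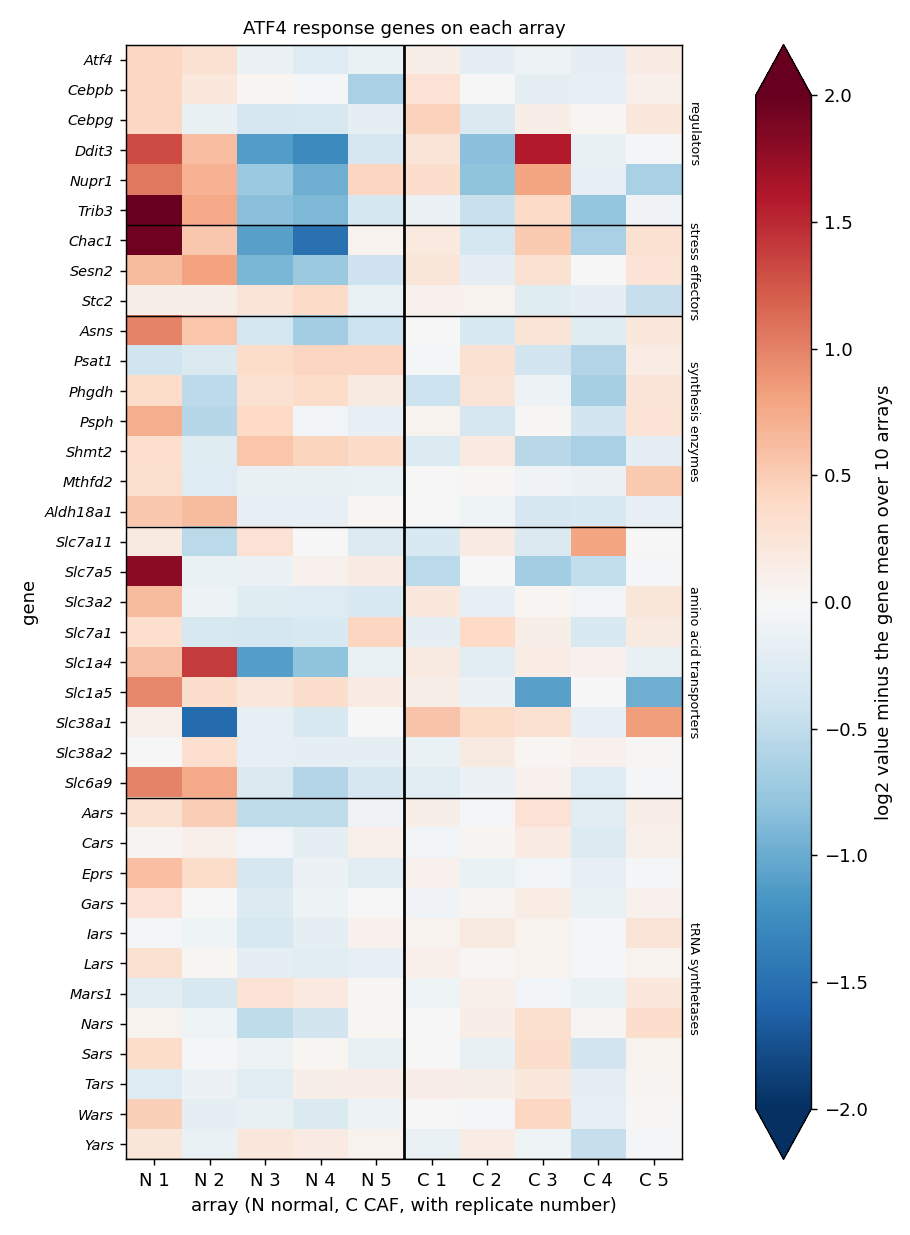
Each gene on each array, as the log2 value minus the gene's mean over the 10 arrays (colour), with normal arrays N 1 to N 5 on the left and CAF arrays C 1 to C 5 on the right of the vertical line. Red is above and blue below the gene's mean; colours end at 2 and -2, and Trib3 on N 1 lies beyond the scale. N 1 and N 2 are red and N 3 and N 4 blue for Ddit3, Nupr1, Trib3, Chac1, Sesn2, Asns and Slc1a4.

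Among the regulators, Atf4 itself read 13.66, 13.55, 13.13, 12.99 and 13.12 on normal arrays 1 to 5 and 13.37, 13.06, 13.15, 13.06 and 13.41 on CAF arrays 1 to 5. Normal replicates 1 and 2 were the highest of the 10, and the groups overlapped. CAF minus normal was -0.08 ± 0.15 (SE, n = 5 per group), with a 95% interval of -0.40 to 0.25 and an adjusted p of 0.783 in limma. The other Atf4 probe sets gave -0.33 and -0.11.

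Cebpb, which encodes a C/EBP factor that pairs with ATF4, read 13.65, 13.45, 13.28, 13.20 and 12.59 in normal and 13.54, 13.23, 13.05, 13.08 and 13.34 in CAF cultures. Its difference was 0.01, with an interval of -0.40 to 0.43. For Cebpg, the gene of another such partner, the values were 10.46, 9.91, 9.72, 9.74 and 9.88 against 10.51, 9.77, 10.20, 10.09 and 10.28. Array 1 of each group stood highest for Cebpg, and the difference was 0.23 ± 0.17 (SE, adjusted p = 0.453 in limma).

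Ddit3 encodes CHOP, a transcription factor induced downstream of ATF4 in prolonged stress. It read 11.79, 11.11, 9.37, 9.22 and 10.15 in normal and 10.74, 9.65, 12.08, 10.33 and 10.46 in CAF cultures. The highest value was that of CAF replicate 3 and the lowest that of normal replicate 4, and the groups overlapped. The difference was 0.33 ± 0.58 (SE), with an interval of -0.97 to 1.62 and an adjusted p of 0.767.

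Nupr1, a stress-induced chromatin protein, was also high on normal replicates 1 and 2 and CAF replicate 3: it read 13.31, 12.94, 11.50, 11.27 and 12.68 in normal and 12.60, 11.45, 13.04, 12.09 and 11.60 in CAF cultures. Its difference was -0.18 ± 0.46 (SE), with an interval of -1.21 to 0.84. Trib3, a pseudokinase that is an ATF4 target and restrains ATF4 and CHOP, read 11.02, 9.42, 7.83, 7.77 and 8.32 against 8.55, 8.22, 9.05, 7.90 and 8.60. Within the normal group it spanned 9.55-fold between replicates 1 and 4, and its SD there lay at percentile 97.7 of all genes. CAF minus normal for Trib3 was -0.41 ± 0.58 (SE), with an interval of -1.72 to 0.90 and an adjusted p of 0.706.

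The array codes in the labels begin with vs on normal replicates 1, 2 and 3 and with ls on the other normal and all CAF arrays; their meaning is not given. Against the ls normal arrays alone, CAF were higher by 0.97 for Ddit3 and 0.42 for Trib3. Against the vs normal arrays alone, the values were -0.10 and -0.96. The direction of these genes therefore turned with the normal cultures used, and the part of the prefix was not tested beyond this.

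Chac1 and Sesn2 are stress effectors: the former degrades glutathione, and the latter passes leucine shortage on to the growth regulator mTORC1. Chac1 read 11.71, 10.30, 8.67, 8.27 and 9.82 in normal and 9.95, 9.40, 10.28, 9.11 and 10.07 in CAF cultures. The normal values spanned 10.9-fold and enclosed all 5 CAF values. The group means were equal within 0.01 log2 units (difference 0.0076 ± 0.59 SE), but the interval reached from -1.31 to 1.33, so a 2-fold difference either way is not excluded by these arrays.

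Sesn2 read 10.21, 10.38, 8.67, 8.84 and 9.17 in normal and 9.81, 9.39, 9.89, 9.56 and 9.86 in CAF cultures. Normal replicates 1 and 2 were above and replicates 3, 4 and 5 below every CAF array. The difference was 0.25 ± 0.33 (SE), with an interval of -0.50 to 1.00.

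Stc2, a secreted glycoprotein induced by stress, had its highest value on normal replicate 4. It read 8.17, 8.17, 8.31, 8.44 and 7.92 in normal and 8.14, 8.13, 7.82, 7.86 and 7.59 in CAF cultures, with 4 of the normal values above all CAF values. The difference was -0.30 ± 0.13 (SE, adjusted p = 0.213 in limma), and its other probe sets gave -0.46 and -0.30.

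**Figure D3:**
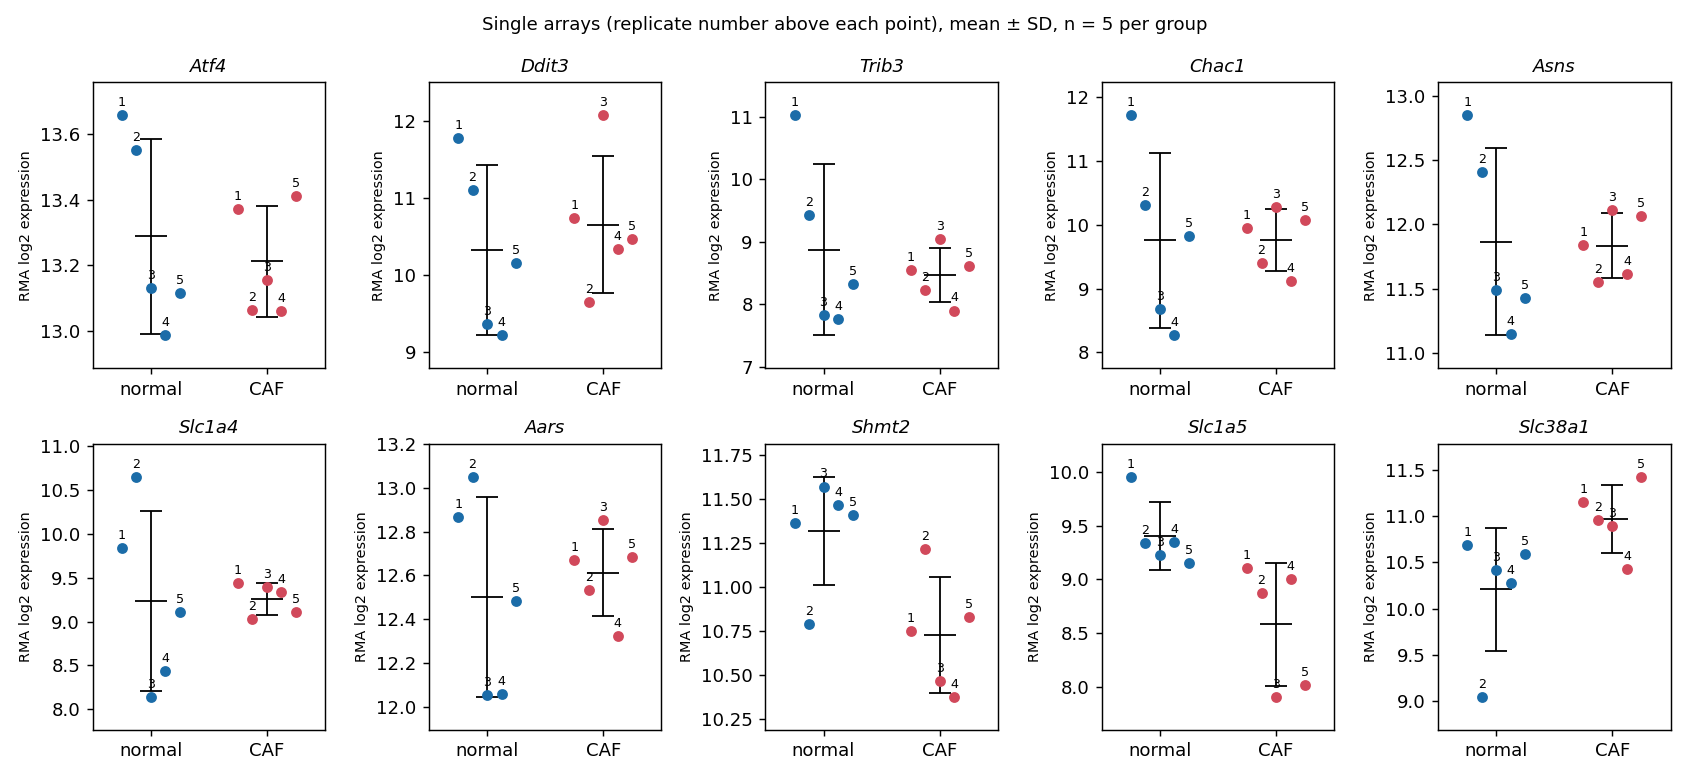
RMA log2 expression of 10 of the genes on single arrays (points, replicate number above each), with the mean ± SD of each group (n = 5). In Atf4, Trib3, Chac1, Asns, Slc1a4 and Aars the normal points lie at both ends of the plot, with replicates 1 and 2 at the top, and in Ddit3 CAF replicate 3 lies above them; Slc1a5 is the only gene of the 37 without overlap between groups. The y axes differ between panels.

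The synthesis enzymes fell into sets with different orders of the arrays. Asns, which makes asparagine and is a standard ATF4 target, read 12.85, 12.41, 11.49, 11.15 and 11.43 in normal and 11.84, 11.55, 12.11, 11.61 and 12.07 in CAF cultures. Normal replicates 1 and 2 were the highest arrays and replicate 4 the lowest, as for Trib3 and Chac1. CAF minus normal was -0.03 ± 0.31 (SE, adjusted p = 0.965 in limma); with normal arrays of code ls it was 0.55, and with those of code vs -0.41. Aldh18a1, which starts proline synthesis from glutamate, read 12.00, 12.08, 11.29, 11.28 and 11.48 against 11.47, 11.37, 11.12, 11.15 and 11.28. It too was highest on normal replicates 1 and 2, and its difference was -0.35 ± 0.17 (SE, adjusted p = 0.268). The other probe sets of Aldh18a1 gave -0.37 to -0.28.

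Phgdh, Psat1 and Psph encode the consecutive steps of serine synthesis. Phgdh read 13.36, 12.48, 13.31, 13.37 and 13.18 in normal and 12.57, 13.26, 12.90, 12.34 and 13.25 in CAF cultures. Psat1 read 11.52, 11.62, 12.28, 12.34 and 12.34 against 11.89, 12.22, 11.52, 11.33 and 12.05. Unlike Asns, Psat1 was lower on normal replicates 1 and 2 than on the other normal arrays, and Phgdh was low on replicate 2. Psph read 11.92, 10.62, 11.60, 11.14 and 11.04 against 11.27, 10.86, 11.22, 10.82 and 11.46, lowest on normal replicate 2. The differences were -0.27 ± 0.23 for Phgdh, -0.22 ± 0.23 for Psat1 and -0.14 ± 0.24 for Psph (SE), with adjusted p-values of 0.504, 0.599 and 0.759 in limma.

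Shmt2 is the mitochondrial enzyme that takes a carbon unit from serine. Its values were 11.36, 10.79, 11.57, 11.47 and 11.41 in normal and 10.75, 11.21, 10.46, 10.37 and 10.83 in CAF cultures. Normal replicate 2 lay among the CAF arrays and CAF replicate 2 stood above the other CAF arrays, and otherwise the normal values were the higher. The mean was 1.51-fold higher in normal cultures (difference -0.59 ± 0.19 SE, interval -1.01 to -0.17, adjusted p = 0.121 in limma). Its other 3 probe sets gave -0.54, -0.43 and -0.29. With array weights the adjusted p of Shmt2 was 0.0372 (difference -0.69), and under all 20 other limma alternatives it was above 0.05.

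Mthfd2, the next mitochondrial enzyme of the folate path, read 11.21, 10.63, 10.75, 10.75 and 10.76 against 10.90, 10.91, 10.83, 10.77 and 11.42. Apart from normal replicate 1 and CAF replicate 5 its values were close together, and the difference was 0.15 ± 0.15 (SE). Of the 7 synthesis enzymes, 6 were on the lower side in CAF and 0 were called, while 10416 of all 18193 genes were on the lower side. The median difference of the 7 was -0.22. The other probe sets of Mthfd2 and Asns gave -0.02 and 0.02, so the side of these genes depended on the probe set.

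The transporters held the largest differences of the set, in both directions. Slc1a5, the glutamine carrier ASCT2, read 9.96, 9.34, 9.22, 9.35 and 9.15 in normal and 9.10, 8.87, 7.91, 9.0 and 8.01 in CAF cultures. All normal values lay above all CAF values, by a narrow margin, and CAF replicates 3 and 5 were far below the rest. The mean was 1.77-fold higher in normal cultures (difference -0.82 ± 0.27 SE, interval -1.43 to -0.22, adjusted p = 0.126 in limma). The direction held with normal arrays of code ls (-0.67) and of code vs (-0.93), while the other Slc1a5 probe set gave -0.13.

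Slc38a1, the glutamine and neutral amino acid carrier SNAT1, read 10.69, 9.05, 10.42, 10.28 and 10.60 in normal and 11.16, 10.97, 10.89, 10.43 and 11.43 in CAF cultures. All CAF values but that of replicate 4 were above all normal values, and normal replicate 2 was far below the others. CAF were 1.70-fold higher (difference 0.77 ± 0.31 SE, interval 0.07 to 1.46, adjusted p = 0.189 in limma). Its other probe set gave 0.29. The amino acid carrier Slc38a2 (SNAT2), which adapts to shortage, read 13.05, 13.37, 12.88, 12.84 and 12.85 against 12.90, 13.22, 13.08, 13.12 and 13.07. For Slc38a2 the groups overlapped, and the interval of the difference ran from -0.17 to 0.33. Its other probe sets had the opposite sign, -0.16 and -0.23, the latter with an interval of -0.45 to -0.01.

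Slc7a5 (LAT1), the leucine carrier, works as a dimer with Slc3a2. Slc7a5 read 11.59, 9.66, 9.69, 9.89 and 9.97 in normal and 9.26, 9.79, 9.11, 9.31 and 9.76 in CAF cultures. Normal replicate 1 stood far above the other 9 arrays. The difference was -0.71 ± 0.35 (SE, interval -1.50 to 0.08, adjusted p = 0.265 in limma), and without normal replicate 1 it was -0.36. Slc3a2 read 12.89, 12.15, 12.02, 11.99 and 11.95 against 12.47, 12.09, 12.29, 12.20 and 12.50. It shared the high value on normal replicate 1, and its difference was 0.11 ± 0.18 (SE).

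Slc1a4 (ASCT1), a serine and alanine carrier, and Slc6a9, the glycine carrier GlyT1, were highest on normal replicates 1 and 2. Slc1a4 read 9.83, 10.65, 8.15, 8.44 and 9.11 in normal and 9.43, 9.03, 9.39, 9.33 and 9.11 in CAF cultures. Slc6a9 read 10.58, 10.34, 9.29, 8.99 and 9.24 against 9.35, 9.47, 9.66, 9.33 and 9.55. The normal arrays held both the highest and the lowest values, with CAF between. The differences were 0.02 ± 0.42 for Slc1a4 and -0.22 ± 0.30 for Slc6a9 (SE), with intervals of -0.92 to 0.97 and -0.89 to 0.45.

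Slc7a1 (CAT1), the arginine carrier, read 11.69, 11.03, 10.99, 11.05 and 11.77 against 11.16, 11.74, 11.47, 11.04 and 11.53. Slc7a11 (xCT), the cystine carrier, was the dimmest of the 37 probe sets, with 6.64, 5.91, 6.75, 6.46 and 6.18 against 6.16, 6.63, 6.17, 7.26 and 6.44. Such low values may be near background, and the differences were 0.08 ± 0.20 for Slc7a1 and 0.14 ± 0.23 for Slc7a11 (SE). Of the 9 transporters, 6 were on the higher and 3 on the lower side in CAF, 0 were called, and the median difference was 0.08.

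The tRNA synthetases, which load amino acids onto tRNA, had the narrowest ranges. All 12 intervals lay within 2-fold, 9 differences were on the higher and 3 on the lower side in CAF, 0 were called, and the median difference was 0.07. Nars (asparaginyl) read 13.35, 13.20, 12.77, 12.91 and 13.32 in normal and 13.28, 13.41, 13.60, 13.34 and 13.64 in CAF cultures. Normal replicates 3 and 4 were the lowest and CAF replicates 3 and 5 the highest. The difference was 0.34 ± 0.13 (SE, interval 0.05 to 0.63, adjusted p = 0.166 in limma), and its other probe set gave 0.37.

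Iars (isoleucyl) read 11.67, 11.60, 11.36, 11.50 and 11.77 against 11.75, 11.86, 11.76, 11.64 and 11.94. The groups overlapped through normal replicates 1 and 5, and the difference was 0.21 ± 0.09 (SE, adjusted p = 0.204 in limma). Yars (tyrosyl) read 10.70, 10.33, 10.68, 10.62 and 10.53 against 10.33, 10.60, 10.37, 10.00 and 10.42. It had the largest difference toward normal cultures among the synthetases, -0.23 ± 0.12 (SE, adjusted p = 0.278).

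Aars (alanyl) had the widest range among the normal arrays of the synthetases of the set. It read 12.87, 13.05, 12.05, 12.06 and 12.48 in normal and 12.67, 12.53, 12.85, 12.32 and 12.68 in CAF cultures. Normal replicates 1 and 2 enclosed the CAF values from above and replicates 3 and 4 from below. Eprs (glutamyl and prolyl) read 11.74, 11.51, 10.80, 11.01 and 10.92 against 11.21, 11.00, 11.08, 10.97 and 11.12, also highest on normal replicates 1 and 2. The differences were 0.11 ± 0.21 for Aars and -0.12 ± 0.17 for Eprs (SE). The other probe sets of Eprs gave 0.06, 0.08 and -0.17, so its side depended on the probe set. Mars1 (methionyl) ran the other way within the normal group, with 11.37, 11.28, 11.90, 11.80 and 11.63, and read 11.52, 11.71, 11.54, 11.47 and 11.81 in CAF cultures. Its replicates 1 and 2 were the lowest of the 10 arrays. Cars (cysteinyl), Gars (glycyl), Lars (leucyl), Sars (seryl), Tars (threonyl) and Wars (tryptophanyl) had differences of 0.0029, 0.04, 0.09, -0.05, 0.13 and 0.10, with SE between 0.10 and 0.16 and adjusted p-values between 0.4998 and 0.990 in limma.

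Of the other probe sets, 28 of the 37 genes had 45 in all. Of these 45, 38 had a difference of the same sign as the brightest one and 40 lay within 0.3 log2 units of it. The largest gap, 0.70, was that of Slc1a5. When every probe set was tested singly, 0 of the 82 probe sets of these genes were called, against 429 of all 34945 with 1 symbol. That share is small, so 0 calls among 82 do not set these genes apart.

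Other genes of the pathway were counted in the same way. Of 16 measured genes for the eIF2 kinases, the eIF2 and eIF2B subunits and the eIF2 phosphatase, 0 were called, 12 were on the higher side in CAF, and the median difference was 0.12. The 6 with an unadjusted p under 0.05 (37.5%, against 22.3% of all genes) were all on the higher side. Eif2ak4, the gene of GCN2, read 7.82, 8.26, 8.12, 8.13 and 8.43 in normal and 8.34, 8.58, 8.57, 8.51 and 8.53 in CAF cultures. Only normal replicate 5 reached into the CAF range, and the difference was 0.36 ± 0.11 (SE, adjusted p = 0.110 in limma). Nck1, an adaptor known to counter eIF2 phosphorylation, differed by 0.41 ± 0.13 (SE, adjusted p = 0.115). Eif2ak3, the gene of PERK, differed by 0.43 ± 0.15 (SE, adjusted p = 0.138). The phosphatase subunit gene Ppp1r15a (GADD34), itself an ATF4 target, read 11.50, 10.84, 9.80, 10.30 and 10.24 against 10.95, 10.89, 11.97, 11.29 and 11.62. It was high on normal replicate 1 and highest on CAF replicate 3, and the difference was 0.80 ± 0.33 (SE, adjusted p = 0.187). Impact and Eif2ak2, the others of the 6, differed by 0.76 ± 0.27 and 0.40 ± 0.15 (SE, adjusted p = 0.145 and 0.162 in limma).

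Of 16 further measured ATF4 targets, 0 were called, 9 were on the higher and 7 on the lower side, and the median difference was 0.04. The smallest p-values were those of Jdp2, a repressor of the AP-1 family (difference -0.20 ± 0.07 SE, adjusted p = 0.140 in limma), and of the angiogenic factor Vegfa (1.12 ± 0.43 SE, adjusted p = 0.172). Vegfa read 11.17, 12.22, 9.47, 11.39 and 10.67 in normal and 12.15, 11.53, 12.31, 12.30 and 12.26 in CAF cultures. The mean of the 16 genes was 10.80, 10.55, 9.56, 9.59 and 9.85 on normal and 10.20, 9.81, 10.50, 10.15 and 10.11 on CAF arrays. It thus had the same arrays at both ends as the regulators, whose mean was 12.32, 11.73, 10.81, 10.70 and 11.12 against 11.55, 10.90, 11.76, 11.09 and 11.28. Atf5, a factor related to ATF4, read 12.66, 12.92, 10.68, 10.64 and 10.74 against 11.74, 11.03, 12.00, 11.63 and 11.77; it was picked after its values were seen.

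The cytosolic synthetases and scaffold proteins outside the set (10 measured) ran the other way among the normal cultures. Their mean was 11.32, 10.98, 12.09, 12.15 and 11.84 in normal and 11.65, 11.89, 11.59, 11.54 and 11.77 in CAF cultures, lowest on normal replicates 1 and 2. The 12 synthetases of the set had means of 11.85, 11.67, 11.49, 11.54 and 11.65 against 11.68, 11.71, 11.82, 11.49 and 11.78. Of the 10, 0 were called, and the smallest p was that of the valyl enzyme Vars (difference -0.34 ± 0.15 SE, adjusted p = 0.206 in limma), followed by the scaffold gene Aimp1 (-0.28 ± 0.20 SE, adjusted p = 0.440).

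Of 21 further enzymes of amino acid and one-carbon metabolism, 1 was called, lower in CAF. Over all genes, 0.753% were called and 0.192% were called lower. The values of the groups did not overlap for 2 of the 21, Shmt1 and Glud1 (9.52%, against 7.16% of all genes). Shmt1, the cytosolic counterpart of Shmt2, read 8.98, 8.77, 8.63, 8.93 and 8.87 in normal and 8.27, 8.43, 8.44, 8.52 and 8.32 in CAF cultures, without overlap. It was 1.36-fold higher in normal cultures (difference -0.44 ± 0.08 SE, adjusted p = 0.0496 in limma). The call lay at the threshold: leaving out any 1 array gave adjusted p-values of 0.0524 to 0.150 with differences of -0.49 to -0.40. Glud1, glutamate dehydrogenase, was higher in CAF without overlap and differed by 0.26 ± 0.07 (SE, adjusted p = 0.0938).

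Markers of cell division ran mostly opposite to the stress genes between arrays. The mean of 12 proliferation genes was 9.55, 8.42, 12.18, 12.15 and 11.93 on normal and 10.38, 11.59, 7.80, 10.31 and 10.43 on CAF arrays. The arrays with the highest means of the regulators (normal replicates 1 and 2 and CAF replicate 3) had the lowest means of the proliferation genes. Of the 12 genes, 0 were called, with a median difference of -0.87; Plk1, a mitotic kinase, differed by -1.33 ± 0.95 (SE, adjusted p = 0.432 in limma) and Cdk1 by -1.11 ± 0.89 (SE, adjusted p = 0.485). Macrophage markers had another order, with means of 12.68, 9.29, 12.02, 10.89 and 9.90 on normal and 12.70, 10.98, 10.19, 11.20 and 12.05 on CAF arrays. Among the normal arrays, replicates 1 and 2, both high in stress genes, were at opposite ends of the macrophage and mesothelial means. The part of proliferation or of other cells in the spread of the ATF4 genes was not tested.

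**Figure D4:**
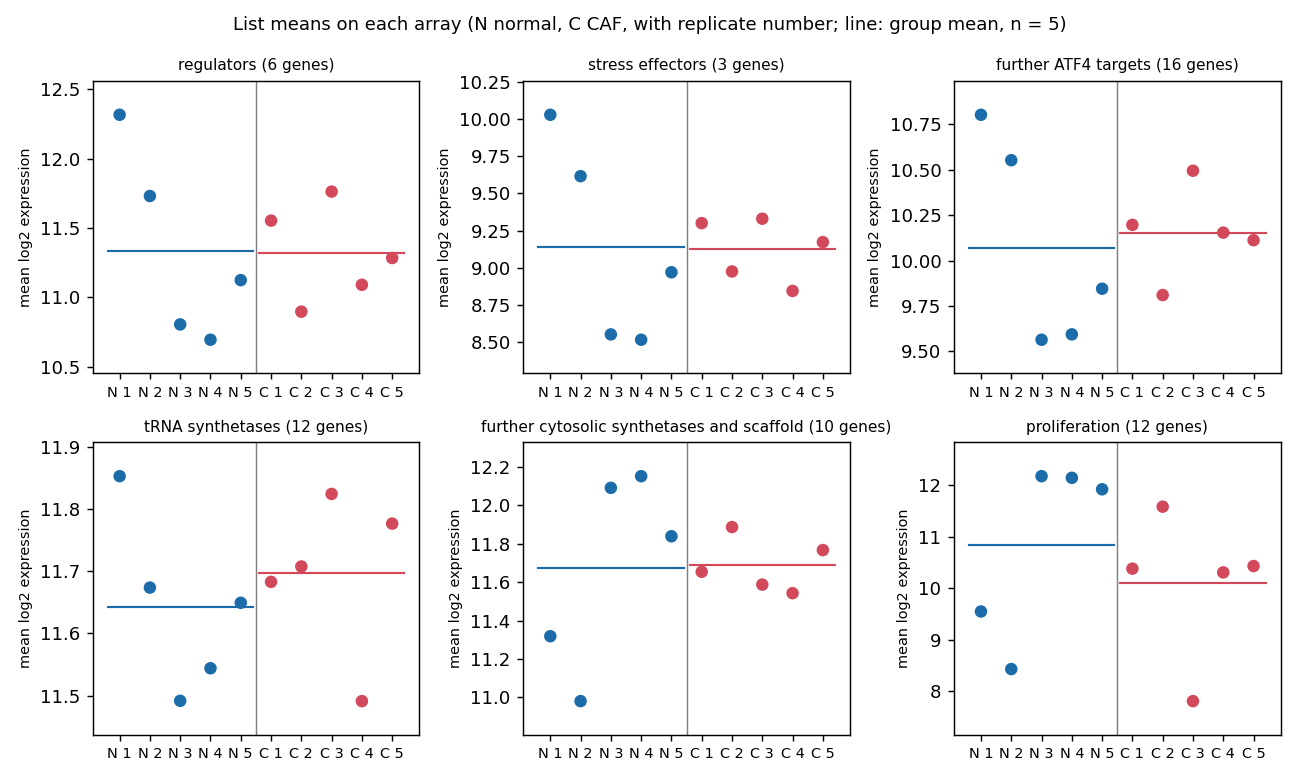
Mean RMA log2 expression of 6 gene lists on each array (points; N normal, C CAF, with replicate number), with lines for the group means (n = 5). The regulators, stress effectors and further ATF4 targets are highest on N 1 and N 2 or N 1 and C 3 and lowest on N 3 and N 4, while the further cytosolic synthetases and the proliferation genes are low on N 1 and N 2 and high on N 3 and N 4. The y axes differ between panels.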

How the data were processed

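The authors deposited log2 expression values for 45101 probe sets on 10 Affymetrix Mouse430_2 arrays. Per the submitters' processing notes they were made with RMA in Affymetrix Expression Console, with limma among the tools and no version in the sources used here. RMA normalises between arrays, so a difference is relative to the rest of its array, and it gives no detection call. Probe sets were named from the platform table, with symbols updated through Entrez numbers (34741 matched). Those with 1 symbol (34945) were kept; 932 with several, 9160 unnamed and 64 control probe sets were left out. A gene's brightest probe set stood for it.

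Genes were tested with limma 3.58.1 (lmFit, eBayes; R 4.3.3), group as the only term, on all 10 arrays, with Benjamini-Hochberg adjustment over 18193 genes and a call at adjusted p under 0.05. No filter on low values was set; all 37 measured genes had a mean of at least 6. The fit was tested on simulated data. All 38 genes are named. Of other lists, called genes and the 2 smallest p-values are named, plus Eif2ak2, Eif2ak3, Impact, Ppp1r15a and Atf5, chosen with their values known. Alternatives covered normalisation, centring, filter, probe set rule, prior, array weights, replicate block, label prefix, an exact Wilcoxon test and leaving out each array. The genes, lists and rules were chosen with earlier results of these data known. The number of arrays limits the precision.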

Additional observations from a re-analysis of the deposited data

Results flagged for a closer look

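Single arrays that stood far from the other 4 of their group were found in 10 of 74 groups of values. The rule was a gap to the nearest value over the range above 0.71, the 95% critical value of Dixon's test for 5 values. Chance gives about 1 in 20 for a single group, but these groups share the same arrays and the genes of a pathway. They are not independent, and no share over all genes is given, so the count is a description only. Normal replicate 1 was far above its group for Cebpg (10.46), Mthfd2 (11.21), Slc7a5 (11.59), Slc3a2 (12.89), Slc1a5 (9.96) and Wars (11.28). Normal replicate 2 was far below its group for Phgdh (12.48), Shmt2 (10.79) and Slc38a1 (9.05). CAF replicate 5 was far above its group for Mthfd2 (11.42). Of these 10, 9 were normal arrays.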

How the results depend on the processing

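The count of 0 called among the 37 genes held under all alternatives but array weights, which called 1 (Shmt2). Some of these settings called 0 or 1 of all genes, as given below, so 0 in the set was then nearly fixed in advance. An exact Wilcoxon test called 0 of all genes (3184 at an unadjusted p under 0.05, 4 of them in the set). With 5 arrays per group its lowest p was 0.0079, and the lowest adjusted p over all genes was 0.111. Calls over all genes (137) went to 90 with quantile normalisation (41 higher and 49 lower in CAF, against 102 and 35), 285 with centred arrays (250 and 35), 75 with the filter, 46 with trend and robust priors, 1597 with array weights, 0 with the prefix as a term (2649 at an unadjusted p under 0.05), 1 with the ls normal arrays alone, and 0 to 166 with 1 array left out. By the array left out, they fell to 24 (normal 1), 63 (normal 4), 46 (normal 5), 1 (CAF 4) and 0 (normal 3, CAF 1, CAF 3 or CAF 5). The 1 call in the other lists went to 9 with array weights and to 0 with the filter, the mean of probe sets, trend and robust priors, the prefix term, the ls or the vs normal arrays alone and each array left out.

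The median of the stress effectors was 0.70 with the prefix term or the ls arrays alone. Of 776 values of single genes under 21 settings, 688 kept their sign and call, 87 changed sign and 1 became called; 13 genes kept their sign throughout. With array weights the differences were 0.079 for Atf4, 0.047 for Trib3, 0.30 for Asns, -0.013 for Slc7a1, 0.089 for Slc6a9, 0.039 for Eprs and -0.057 for Mars1. With centred arrays Asns was 0.012. With the prefix term or the ls arrays alone they were 0.16 for Atf4, 0.18 for Nupr1, 0.42 for Trib3, 0.55 for Asns, 0.037 for Psph, -0.019 for Slc7a1, 0.35 for Slc6a9, 0.11 for Eprs, -0.11 for Mars1, 0.036 for Sars and -0.067 for Tars. With the vs arrays alone they were -0.21 for Cebpb, -0.10 for Ddit3, -0.47 for Chac1, -0.047 for Sesn2, -0.043 for Slc3a2, -0.28 for Slc1a4, -0.022 for Slc38a2, -0.044 for Aars, -0.028 for Cars, -0.0041 for Lars and -0.0051 for Wars. With quantile normalisation they were -0.12 for Chac1, -0.13 for Slc1a4, -0.11 for Cars and -0.047 for Mars1, and with the mean of probe sets -0.10 for Slc38a2 and -0.051 for Cars. The cause of these changes was not tested.

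With 1 array left out, 18 genes changed sign, with ranges of -0.0017 to 0.25 for Aars, -0.21 to 0.22 for Asns, -0.15 to 0.016 for Atf4, -0.047 to 0.070 for Cars, -0.15 to 0.12 for Cebpb, -0.36 to 0.50 for Chac1, -0.030 to 0.69 for Ddit3, -0.22 to 0.018 for Eprs and -0.024 to 0.12 for Gars. They were -0.065 to 0.090 for Mars1, -0.45 to 0.059 for Nupr1, -0.30 to 0.027 for Psph, -0.14 to 0.043 for Sars, -0.25 to 0.38 for Slc1a4, -0.39 to 0.0033 for Slc6a9, -0.0034 to 0.20 for Slc7a1, -0.038 to 0.24 for Slc7a11 and -0.69 to 0.13 for Trib3.

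With the replicate number as a replicate block, 0 of all genes and 0 in the other lists were called (3017 genes at an unadjusted p under 0.05). Same-numbered arrays did not deviate together from their group means (correlations of 0.34, -0.53, -0.48, -0.06 and -0.09 for replicates 1 to 5), so the numbers were not taken to pair the samples. RMA values carry no measure of signal over background, which limits the dim Slc7a11 most.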

Other observations

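Of 20 measured amino acid transporters outside the set, 0 were called; 12 were on the higher and 8 on the lower side in CAF, with a median difference of 0.18 against -0.04 over all genes. At an unadjusted p under 0.05 there were 5 (25%, against 22.3% of all genes), 4 higher and 1 lower. Slc36a4, a carrier of proline and tryptophan, read 10.53, 10.17, 10.10, 10.08 and 10.27 in normal and 10.92, 10.56, 10.50, 10.98 and 11.20 in CAF cultures. Normal replicate 1 alone reached into the CAF range, and the difference was 0.60 ± 0.15 (SE, adjusted p = 0.0746 in limma). Slc6a6, the taurine carrier, differed by 0.65 ± 0.21 (SE, adjusted p = 0.125).

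The mitochondrial synthetases (16 measured, 0 called, median difference -0.05) had means of 8.34, 8.28, 8.81, 8.76 and 8.52 on normal and 8.49, 8.60, 8.53, 8.46 and 8.55 on CAF arrays. Like the cytosolic synthetases outside the set, they were lowest on normal replicates 1 and 2 and highest on replicates 3 and 4. Iars2 (isoleucyl) differed by 0.22 ± 0.07 (SE, adjusted p = 0.114 in limma) and Sars2 (seryl) by -0.16 ± 0.08 (SE, adjusted p = 0.270). Iars2, higher in CAF, was the 1 gene of the 16 without overlap between groups (6.25%, against 7.16% of all genes).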
